A study of Arabidopsis thaliana with 4 samples.

Results

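Auxin-related and SAUR genes were followed in shoot apices dissected from Arabidopsis thaliana plants of the Col-0 ecotype. They are the genes whose short annotation in the deposited table holds the word auxin, SAUR or indole-3-acetic acid and does not mention glutathione, which gave 166 of 32399 listed genes. By the same annotation and their names they were 78 SAUR genes, 23 Aux/IAA genes, 20 ARF genes, 10 transport genes, 10 GH3 genes, 3 F-box receptor genes, 4 dormancy/auxin associated genes and 18 others. The class named others holds members of unlike function: SAR1 and SAR3 encode nucleoporins, and AUL1, an auxilin-like gene, is a member through the letters of its name alone.

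Auxin is the plant hormone that places new leaves and flowers at the flanks of the shoot meristem and drives cell elongation. It binds F-box receptors of the TIR1 and AFB family, which then mark Aux/IAA repressor proteins for breakdown and so free the ARF transcription factors that these repressors hold. SAUR genes (small auxin up RNA), Aux/IAA genes and GH3 genes are the classic early response genes: SAUR proteins promote growth through the plasma membrane proton pump, Aux/IAA proteins feed back on the pathway, and several GH3 enzymes join auxin to amino acids. AUX1 and LAX proteins carry auxin into the cell, and PILS proteins carry it across the membrane of the endoplasmic reticulum.

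Poly(A) RNA was sequenced from 4 groups. The nse4a-2 plants carried a mutant allele of NSE4A, a subunit of the SMC5/6 complex that keeps chromosomes intact during DNA repair, and the others were wild type (WT). Seedlings aged 9 days were moved to liquid medium for 24 h, either with 20 µM zebularine, a cytidine analogue that traps DNA methyltransferases on DNA, or without it. The groups are nse4a-2_zeb, nse4a-2_ctrl, WT_zeb and WT_ctrl, each with 2 biological replicates per the file headers, and all were dissected at 10 days after leaves, hypocotyl and roots had been removed. The labels give neither the hour of harvest nor the number of plants per library, and the molecular nature of the allele is not given in the sources used here.

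The 8 libraries held 15360494 to 19811948 counts, of which the members took 0.302 to 0.362%. Levels are given in CPM, the share of a gene in the counts of its scaled library. Of the 166 members, SAUR30 has no values in the table, 14 had 0 counts in every library, and 35 had 1 to 66 counts in all libraries together and were not tested. The other 116 had enough counts to be tested, with a median of 1208.5 counts over the 8 libraries, but the 53 SAUR genes among them had a median of 287 counts and the 31 Aux/IAA and ARF genes one of 3279. NSE4A itself was read at 18.5 and 21.1 CPM in nse4a-2_zeb and 8.4 and 7.79 CPM in nse4a-2_ctrl. It was at 10.5 and 12.9 CPM in WT_zeb and 10.7 and 9.23 CPM in WT_ctrl. By edgeR it rose by 1.29 with zebularine in nse4a-2 (adjusted p = 0.00156) and by 0.76 against WT in zebularine (adjusted p = 0.00999). In control medium the difference between genotypes was -0.3 (adjusted p = 0.407), so its count does not check the genotype labels. In this bulk tissue, fewer cells of a type and less RNA per cell cannot be told apart. Meristem markers were present in every library, with the homeobox gene STM at 13.6 to 21.3 CPM and the receptor gene CLV1 at 40.1 to 61.5 CPM, while the meristem organiser WUS stayed at 0 to 0.192 CPM and the stem cell peptide gene CLV3 at 0 to 0.384 CPM. Of the 8 meristem and boundary genes tested, KNAT6, a homeobox gene of the shoot boundary, was the one called: it was at 21.8 and 23.8 CPM in nse4a-2_zeb, 12.5 and 14.7 CPM in nse4a-2_ctrl, 13.4 and 11.6 CPM in WT_zeb, and 7.88 and 7.50 CPM in WT_ctrl, and it rose with zebularine in nse4a-2 (adjusted p = 0.0115) and in nse4a-2 against WT in zebularine (adjusted p = 0.00352) and in control medium (adjusted p = 0.0263) by edgeR.

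In both comparisons that hold nse4a-2_zeb, auxin genes were called at a share near that of all genes, and the calls went both ways. A gene is said to have risen or fallen where its adjusted p was below 0.05 in edgeR's quasi-likelihood test, with 19682 genes tested. With zebularine in nse4a-2, 8 members rose and 6 fell, which is 12.1% of those tested, against 14.7% of all genes tested (8.94% higher and 5.74% lower). In nse4a-2 against WT, both in zebularine, 11 rose and 11 fell, which is 19%, against 22.0% of all genes (12.9% higher and 9.09% lower). With zebularine in WT, 4 rose and 1 fell, which is 4.31%, against 2.3% of all genes (1.66% higher and 0.635% lower). In nse4a-2 against WT in control medium, 4 rose and 0 fell, which is 3.45%, against 3.13% of all genes (2.28% higher and 0.854% lower). In that comparison 18 members were higher and 10 lower at an unadjusted p below 0.05, which is 24.1% of those tested, against 18.4% of all genes. There DESeq2 called 8 members, 1 of them lower. The comparisons share groups, so their counts are not independent, and 28 members were called in at least 1 of them, which is 24.1%, against 27.5% of all genes tested. Where a gene is said below to have missed the threshold or to have no call, that is in this test, and alternatives with all 8 libraries that called it are named.

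**Figure D1:**
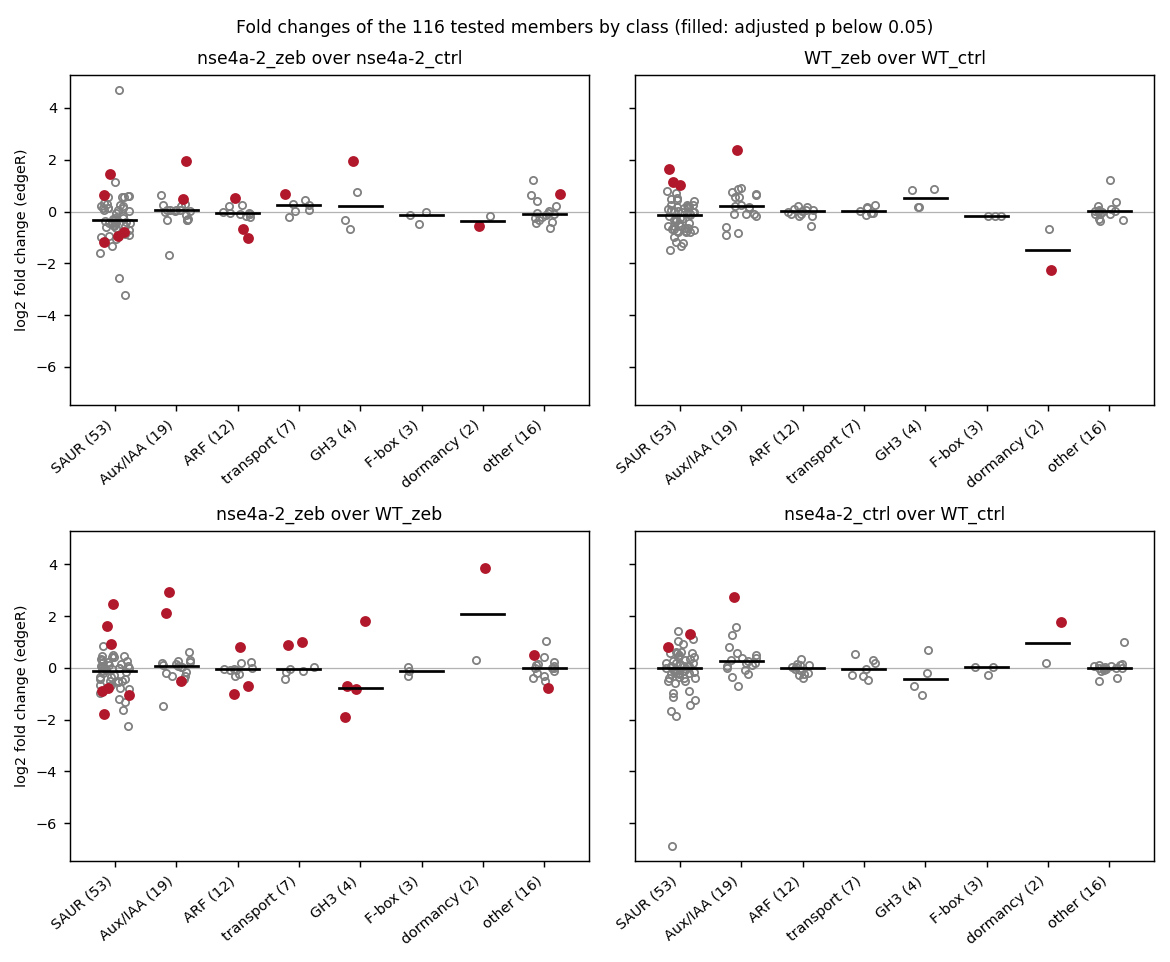
Each point is 1 of the 116 tested members, placed by its class (number tested in brackets) and its log2 fold change from edgeR, in 4 comparisons. Filled points passed an adjusted p of 0.05 and bars are class medians; most filled points lie in both comparisons that hold nse4a-2_zeb (14 and 22 members), and the lowest point for nse4a-2_ctrl over WT_ctrl is SAUR13, which had 0 counts in nse4a-2_ctrl.

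Among the ARF transcription factors, 3 of the 12 tested changed in at least 1 comparison, a share near the 27.5% of all genes. Each changed in comparisons that hold the mutant treated with zebularine: ARF6 rose, and ARF10 and ARF18 fell. Most calls of all genes lay there too. With zebularine 14.7% of all genes were called in nse4a-2 and 2.3% in WT. In nse4a-2 against WT, 22.0% were called in zebularine and 3.13% in control medium. ARF18, a factor of the repressor class, was at 14.9 and 12.2 CPM in nse4a-2_zeb, against 26.1 and 28.5 CPM in nse4a-2_ctrl, 27.4 and 27.1 CPM in WT_zeb, and 29.2 and 26.5 CPM in WT_ctrl. Both nse4a-2_zeb libraries lie below the other 6, which do not separate by group. ARF18 fell by 1.01 ± 0.14 (SE) on the log2 scale with zebularine in nse4a-2 (adjusted p = 0.00178) and by 1.01 ± 0.14 against WT in zebularine (adjusted p = 0.000994). With zebularine in WT its difference was -0.03 ± 0.13 (adjusted p = 0.95).

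ARF10, a repressor-class factor whose transcript is a target of miR160, had the same outline. It was at 16.1 and 17.6 CPM in nse4a-2_zeb, against 25 and 28.5 CPM in nse4a-2_ctrl, 26.2 and 28.6 CPM in WT_zeb, and 24.0 and 23.9 CPM in WT_ctrl. It fell by 0.66 ± 0.13 on the log2 scale with zebularine in nse4a-2 and by 0.70 ± 0.12 against WT in zebularine. The first of these calls was lost without either nse4a-2_zeb library (adjusted p = 0.0551 and 0.0525), and the second was kept in every alternative. ARF16 and ARF17, which miR160 also targets, did not pass in any comparison, with differences of 0.25 ± 0.14 and -0.02 ± 0.21 for zebularine in nse4a-2.

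ARF6, an activator needed for flower maturation, was among the most read members. It stood at 347.5 and 326.5 CPM in nse4a-2_zeb, against 210.4 and 262.0 CPM in nse4a-2_ctrl, 183.7 and 199.6 CPM in WT_zeb, and 179.3 and 192.1 CPM in WT_ctrl. ARF6 rose by 0.81 ± 0.13 against WT in zebularine (adjusted p = 0.0027) and by 0.51 ± 0.13 with zebularine in nse4a-2 (adjusted p = 0.032). The second call was lost in 5 of the 8 fits that leave out 1 library: without either nse4a-2_zeb library, nse4a-2_ctrl replicate 1 or either WT_ctrl library, at adjusted p values of up to 0.137. ARF8, its close relative, stayed at 89.0 to 100.6 CPM in all 8 libraries and did not pass. ARF2, the most read ARF gene, was at 329.4 and 343.7 CPM in nse4a-2_zeb and at 252.1 to 327.6 CPM in the other 6 libraries, and did not pass either. The ARF medians of the log2 fold change lay between -0.07 and 0.00 in the 4 comparisons, close to those of all genes, -0.02 to 0.00.

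A group of ARF genes was silent at this depth. ARF12, ARF13, ARF14, ARF15, ARF20, ARF22 and ARF23 had 0 counts in every library, and ARF21 had 1 count in all. A count of 0 allows up to 3 counts, or 0.151 to 0.195 CPM, in a library (counting error only). Every other ARF member passed the filter on low counts.

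**Figure D2:**
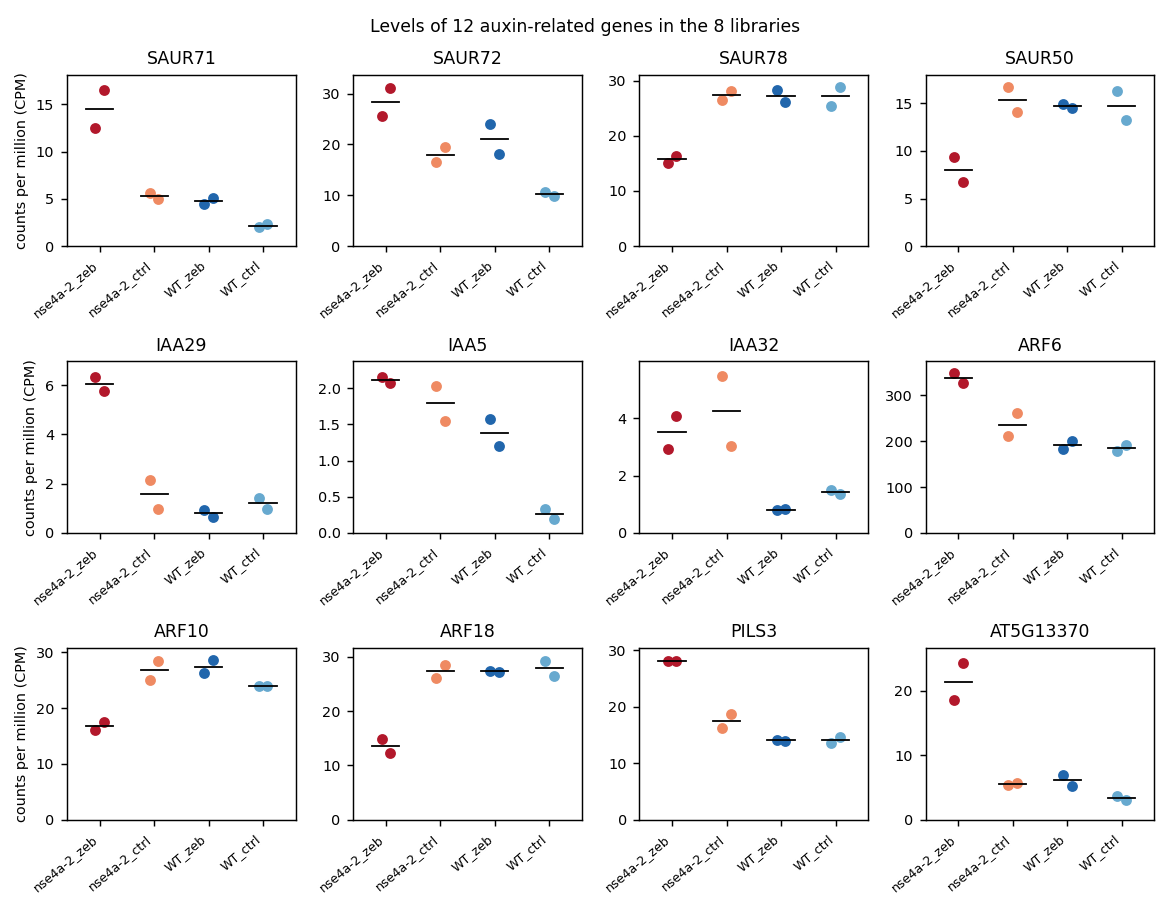
Levels of 12 members in CPM (vertical axes, each from 0) in the 8 libraries, by group, with a line at the mean of 2 replicates. SAUR71, SAUR72, IAA29, ARF6, PILS3, AT5G13370 and, by a narrow gap, IAA5 have both nse4a-2_zeb libraries above the other 6, and SAUR78, SAUR50, ARF10 and ARF18 have both below them.

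Of the 19 tested Aux/IAA repressor genes, 5 changed in at least 1 comparison, which is 26.3%, near the 27.5% of all genes. IAA29, a target of the light-responsive PIF factors, was at 6.35 and 5.77 CPM in nse4a-2_zeb, against 2.16 and 0.99 CPM in nse4a-2_ctrl, 0.931 and 0.657 CPM in WT_zeb, and 1.43 and 0.961 CPM in WT_ctrl. The 2 nse4a-2_zeb libraries stand above all others. IAA29 rose by 2.91 ± 0.41 against WT in zebularine (adjusted p = 0.00126), kept in every alternative, and by 1.94 ± 0.39 with zebularine in nse4a-2 (adjusted p = 0.0108). The second was lost without either nse4a-2_zeb library (adjusted p = 0.0513 and 0.0658).

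IAA5, an early auxin response gene, had its lowest values in WT_ctrl, as did IAA7, IAA1 and IAA19 below. It had 34 and 36 counts in nse4a-2_zeb (2.16 and 2.08 CPM), 32 and 25 counts in nse4a-2_ctrl (2.04 and 1.55 CPM), 32 and 22 counts in WT_zeb (1.57 and 1.20 CPM), against 6 and 3 counts in WT_ctrl (0.331 and 0.192 CPM). It rose by 2.36 ± 0.48 with zebularine in WT (adjusted p = 0.0385) and by 2.72 ± 0.47 in nse4a-2 against WT in control medium (adjusted p = 0.0182). Both calls rest on the 9 counts of WT_ctrl: the first was lost in each of the 8 fits that leave out 1 library (adjusted p = 0.0568 to 0.205), and the second without any 1 library of nse4a-2_ctrl or WT_ctrl (adjusted p = 0.0639 to 0.0997). Within nse4a-2, zebularine gave a difference of 0.24 ± 0.37 (adjusted p = 0.71).

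IAA32, which lacks the degron by which auxin receptors bind, separated the genotypes. It was at 2.92 and 4.09 CPM in nse4a-2_zeb and at 5.47 and 3.03 CPM in nse4a-2_ctrl, against 0.784 and 0.821 CPM in WT_zeb and 1.49 and 1.34 CPM in WT_ctrl. Every nse4a-2 library lies above every WT library. It rose by 2.12 ± 0.39 in nse4a-2 against WT in zebularine (adjusted p = 0.0049), kept in every alternative, and the difference in control medium, 1.58 ± 0.37, missed the threshold (adjusted p = 0.053), which it passed by DESeq2 (adjusted p = 0.0272), without the filter on low counts and with the replicate block. IAA18, a repressor with a role in embryo and root patterning, was at 18.5 and 19.8 CPM in nse4a-2_zeb, against 27.7 and 26.7 CPM in WT_zeb, and fell by 0.50 ± 0.12 (adjusted p = 0.014). That call was lost without either nse4a-2_zeb library or WT_zeb replicate 1 (adjusted p = 0.0661 to 0.0886).

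IAA7, also known as AXR2, was at 176.5 and 184.5 CPM in nse4a-2_zeb, against 140.0 and 119.5 CPM in nse4a-2_ctrl, and at 161.6 and 145.9 CPM in WT_zeb, against 102.0 and 109.2 CPM in WT_ctrl. In both genotypes the treated libraries lie above the untreated ones. It rose by 0.48 ± 0.12 with zebularine in nse4a-2 (adjusted p = 0.030), while the difference of 0.54 ± 0.12 in WT missed the threshold (adjusted p = 0.056) and passed by DESeq2 (adjusted p = 0.00462), without the filter and with the block. The call was lost in 5 of 8 fits that leave out 1 library (without either nse4a-2_zeb library, nse4a-2_ctrl replicate 2 or either WT_ctrl library), at adjusted p values of up to 0.183. IAA9, the most read Aux/IAA gene, was at 250.9 to 300.4 CPM in all 8 libraries, and its log2 differences lay between -0.08 and 0.14.

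In the 4 comparisons the Aux/IAA medians were 0.05 with zebularine in nse4a-2, 0.21 with zebularine in WT, 0.07 for nse4a-2 in zebularine and 0.27 for nse4a-2 in control medium, against -0.02 to 0.00 for all genes. The early auxin response genes IAA1 and IAA19 had their lowest values in WT_ctrl. IAA1 was at 23.6 and 23.5 CPM in nse4a-2_zeb, 23.1 and 21.5 CPM in nse4a-2_ctrl, 18.8 and 24.7 CPM in WT_zeb, and 9.97 and 16.0 CPM in WT_ctrl. IAA19 was at 22.5 and 24.4 CPM in nse4a-2_zeb, against 15.2 and 15.2 CPM in nse4a-2_ctrl, and at 12.8 and 25.5 CPM in WT_zeb, against 8.10 and 12.5 CPM in WT_ctrl. Neither had a call by edgeR with the filter and no replicate block (adjusted p = 0.11 and 0.165 for zebularine in WT). DESeq2 called both there (adjusted p = 0.0393 and 0.0451), as did the fit without the filter and the authors' deposited table. In nse4a-2 against WT in control medium, IAA1 missed the threshold (adjusted p = 0.0874). It passed there by DESeq2 (adjusted p = 0.0258), without the filter (adjusted p = 0.0183) and with the block (adjusted p = 0.0379). The authors' deposited table also called IAA1 there. The largest Aux/IAA difference with no call for zebularine in nse4a-2 was that of IAA20, -1.68 ± 0.74, at 0.115 to 0.991 CPM in the 8 libraries.

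SAUR genes made up the largest class. Of the 53 tested, 10 changed in at least 1 comparison, which is 18.9%, against 27.5% of all genes. With zebularine 2 rose and 3 fell in nse4a-2 and 3 rose in WT, and in nse4a-2 against WT 3 rose and 4 fell in zebularine and 2 rose in control medium. The SAUR median was -0.33 with zebularine in nse4a-2, -0.15 with zebularine in WT, -0.13 for nse4a-2 in zebularine and 0.01 for nse4a-2 in control medium. In that order 21, 21, 21 and 27 of the 53 lay above 0. The medians of all genes were -0.02 to 0.00, and their share above 0 is not given here. The summed SAUR level was 200.9 and 205.0 CPM in nse4a-2_zeb, 244.5 and 196.4 CPM in nse4a-2_ctrl, 249.1 and 182.6 CPM in WT_zeb, and 221.6 and 216.4 CPM in WT_ctrl. These sums overlap between the groups, and the spread between replicates of nse4a-2_ctrl and of WT_zeb is as wide as any gap between group means.

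SAUR71 was the member called in all 4 comparisons. It was at 12.5 and 16.6 CPM in nse4a-2_zeb, against 5.66 and 4.95 CPM in nse4a-2_ctrl, and at 4.41 and 5.09 CPM in WT_zeb, against 2.04 and 2.31 CPM in WT_ctrl. The lowest group is WT_ctrl, the highest is nse4a-2_zeb, and nse4a-2_ctrl and WT_zeb overlap between them. SAUR71 rose by 1.45 ± 0.21 with zebularine in nse4a-2 (adjusted p = 0.00245) and by 1.61 ± 0.21 against WT in zebularine (adjusted p = 0.000805), both kept in every alternative. It also rose by 1.13 ± 0.24 with zebularine in WT (adjusted p = 0.043) and by 1.29 ± 0.24 in nse4a-2 against WT in control medium (adjusted p = 0.022). Of these, the first was lost in 7 of 8 fits that leave out 1 library, all but the one without nse4a-2_zeb replicate 1 (adjusted p up to 0.316, without WT_ctrl replicate 1), and the second without any 1 library of nse4a-2_ctrl or WT_ctrl (adjusted p = 0.0641 to 0.16). The difference of both zebularine responses was 0.33 ± 0.32 (adjusted p = 0.71).

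SAUR72, its close relative, was read at a higher level and, unlike SAUR71, had no call in nse4a-2 against WT in zebularine. It was at 25.6 and 31.1 CPM in nse4a-2_zeb, against 16.5 and 19.5 CPM in nse4a-2_ctrl, and at 24.0 and 18.1 CPM in WT_zeb, against 10.6 and 9.93 CPM in WT_ctrl. It rose by 0.66 ± 0.17 with zebularine in nse4a-2 (adjusted p = 0.032), by 1.04 ± 0.18 with zebularine in WT (adjusted p = 0.022) and by 0.81 ± 0.18 in nse4a-2 against WT in control medium (adjusted p = 0.044). The first call was lost without nse4a-2_zeb replicate 2 or either nse4a-2_ctrl library (adjusted p up to 0.239), and the second without WT_zeb replicate 1 or either WT_ctrl library (up to 0.146). The third was lost in 6 of 8 such fits, all but those without a WT_zeb library (up to 0.199). SAUR48 rose with zebularine in WT by 1.65 ± 0.35 (adjusted p = 0.043), at 9.31 and 7.50 CPM in WT_zeb, against 1.87 and 3.52 CPM in WT_ctrl. Its call was lost without any 1 library of WT_zeb or nse4a-2_ctrl or without WT_ctrl replicate 1 (adjusted p = 0.0629 to 0.307). In nse4a-2 it was at 6.03 and 10.1 CPM with zebularine, against 6.17 and 8.35 CPM without.

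SAUR78, the most read SAUR gene, went the other way. It was at 15.1 and 16.3 CPM in nse4a-2_zeb, against 26.5 and 28.1 CPM in nse4a-2_ctrl, 28.3 and 26.2 CPM in WT_zeb, and 25.4 and 29 CPM in WT_ctrl. The 6 other libraries span 25.4 to 29 CPM and do not separate by group. SAUR78 fell by 0.80 ± 0.13 with zebularine in nse4a-2 (adjusted p = 0.0038) and by 0.79 ± 0.13 against WT in zebularine (adjusted p = 0.0022), both kept in every alternative. SAUR50, which light induces in cotyledons, was at 9.40 and 6.69 CPM in nse4a-2_zeb, against 16.7 and 14.1 CPM in nse4a-2_ctrl, 14.9 and 14.6 CPM in WT_zeb, and 16.2 and 13.2 CPM in WT_ctrl. It fell by 0.94 ± 0.20 with zebularine in nse4a-2 (adjusted p = 0.013) and by 0.88 ± 0.20 against WT in zebularine (adjusted p = 0.012). Without nse4a-2_zeb replicate 2 both calls were lost (adjusted p = 0.125 and 0.107), and the first also without nse4a-2_ctrl replicate 1 (adjusted p = 0.079).

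SAUR8 was at 2.16 and 2.60 CPM in nse4a-2_zeb, against 6.23 and 4.64 CPM in nse4a-2_ctrl, and fell by 1.19 ± 0.27 (adjusted p = 0.020). In WT it was at 3.04 and 3.67 CPM with zebularine, against 2.64 and 2.43 CPM without, so nse4a-2_ctrl is its highest group. The call was lost without either nse4a-2_zeb library or nse4a-2_ctrl replicate 1 (adjusted p = 0.0952 to 0.105). In nse4a-2 against WT in zebularine, SAUR9 rose by 0.90 ± 0.24, at 5.78 and 6.69 CPM in nse4a-2_zeb, against 3.48 and 3.17 CPM in WT_zeb. SAUR77 fell by 1.06 ± 0.31, at 1.40 and 1.67 CPM in nse4a-2_zeb, against 3.73 and 2.68 CPM in WT_zeb. SAUR42 rose and SAUR5 fell on few counts: SAUR42 had 12 and 33 counts in nse4a-2_zeb, against 2 and 7 in WT_zeb, and SAUR5 had 10 and 6 counts in nse4a-2_zeb, against 44 and 22 in WT_zeb. These last 4 calls were lost without nse4a-2_zeb replicate 2 or WT_zeb replicate 1, at adjusted p values of up to 0.152 for SAUR9, 0.192 for SAUR77, 0.282 for SAUR42 and 0.222 for SAUR5. The calls of SAUR9, SAUR77 and SAUR5 were also lost without nse4a-2_zeb replicate 1, that of SAUR9 without WT_zeb replicate 2, those of SAUR77 and SAUR5 without either WT_ctrl library, and that of SAUR77 under DESeq2 (adjusted p = 0.0979).

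SAUR13 shows how little the thinnest members can tell. It had 6 and 0 counts in nse4a-2_zeb, against 0 counts in both nse4a-2_ctrl libraries, and 12 and 0 counts in WT_zeb, against 17 and 12 counts in WT_ctrl. Taken against a floor of 3 counts over a group, it was at least 9.1-fold lower in nse4a-2_ctrl than in WT_ctrl, and it passed in no comparison. With SAUR13 set to that bound, the SAUR medians above were the same. SAUR69 had 2 and 0 counts in nse4a-2_zeb, against 5 and 15 in nse4a-2_ctrl, and SAUR37 had 1 and 2 counts in nse4a-2_zeb, against 12 and 6 in nse4a-2_ctrl, with no call for either. SAUR18, SAUR39, SAUR40 and SAUR43 had 0 counts in every library.

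Many SAUR genes stand in rows of near-identical copies, where reads may be shared between neighbours, so a single gene's value there is uncertain. Taking members with at most 3 other listed genes between them, 7 such rows of 3 to 7 SAUR genes were found. The row on chromosome 4 with SAUR49, SAUR50 and SAUR1 to SAUR5 summed to 32.4 and 25.8 CPM in nse4a-2_zeb and 43.2 and 30.6 CPM in nse4a-2_ctrl, against 53.3 and 37.7 CPM in WT_zeb and 49.8 and 48.2 CPM in WT_ctrl. Both nse4a-2_zeb libraries lie below all 4 WT libraries, while nse4a-2_ctrl overlaps WT_zeb. Within that row the leading genes differ: SAUR50 was low in nse4a-2_zeb alone, whereas SAUR1 was at 11.8 and 7.04 CPM in nse4a-2_zeb and 7.70 and 4.83 CPM in nse4a-2_ctrl, against 20.8 and 12 CPM in WT_zeb and 14.4 and 15.1 CPM in WT_ctrl. In nse4a-2 against WT in control medium SAUR1 had an adjusted p of 0.081 by edgeR and one of 0.00646 by DESeq2. SAUR3 was at 0.762 and 0.865 CPM in nse4a-2_zeb and 2.04 and 1.18 CPM in nse4a-2_ctrl, against 3.87 and 1.20 CPM in WT_zeb and 4.74 and 5.38 CPM in WT_ctrl. In nse4a-2 against WT in zebularine its adjusted p was 0.0599 by edgeR and 0.0313 by DESeq2, and without the filter both genes were called in both genotype comparisons.

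None of the other 6 rows held a called gene. The row on chromosome 5 of SAUR19 to SAUR24, whose members drive cell expansion, summed to 9.59 and 9.46 CPM in nse4a-2_zeb and 13.8 and 7.55 CPM in nse4a-2_ctrl, with 11.8 and 4.65 CPM in WT_zeb and 8.59 and 12 CPM in WT_ctrl. The row of SAUR61 to SAUR65 on chromosome 1 summed to 6.99 and 5.65 CPM in nse4a-2_zeb, 11.6 and 6.62 CPM in nse4a-2_ctrl, 8.19 and 5.53 CPM in WT_zeb, and 6.66 and 9.48 CPM in WT_ctrl. In both rows all groups overlap. The authors' FPKM values, which are per length, ranked such neighbours differently from the counts: SAUR24 averaged 23.6 FPKM and SAUR20 5.89 FPKM over the 8 libraries, although both lay within 0.716 to 3.28 CPM.

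**Figure D3:**
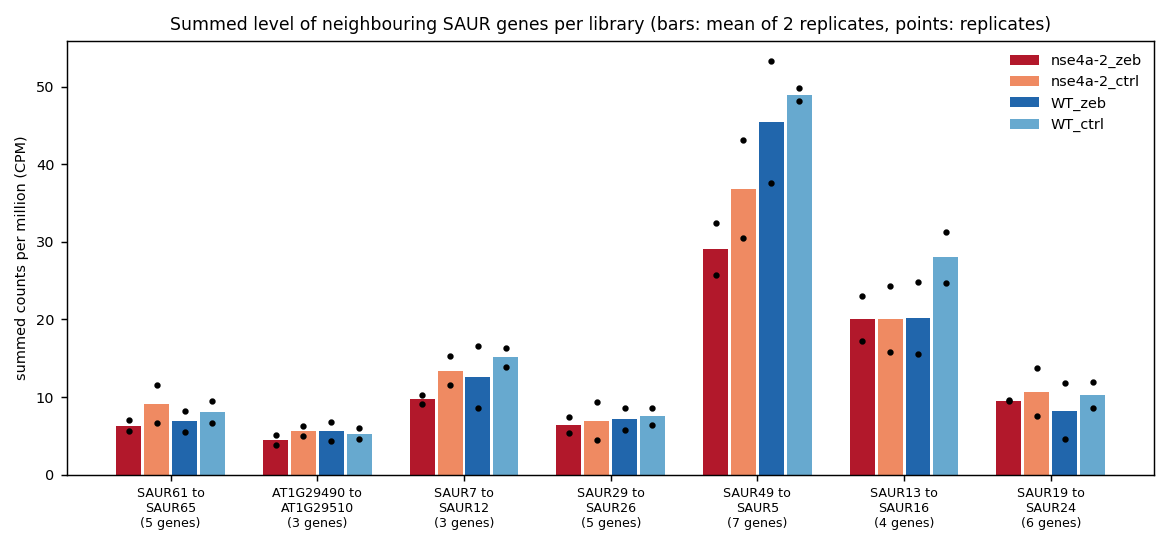
Summed CPM (vertical axis) of 7 rows of neighbouring SAUR genes, with bars at the group mean of 2 replicates and points for the replicates. The row from SAUR49 to SAUR5 has both nse4a-2_zeb libraries (25.8 and 32.4 CPM) below the 4 WT libraries; in the rows of SAUR61 to SAUR65 and SAUR19 to SAUR24 the groups overlap.

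Of the 10 GH3 members, 4 were tested. All 4 of them changed in nse4a-2 against WT in zebularine, where 22.0% of all genes were called. A pair of neighbours went opposite ways. AT5G13370 was at 18.5 and 24.2 CPM in nse4a-2_zeb, against 5.34 and 5.63 CPM in nse4a-2_ctrl, and at 6.96 and 5.25 CPM in WT_zeb, against 3.69 and 3.08 CPM in WT_ctrl. Both nse4a-2_zeb libraries are far above the rest, and WT_ctrl is the lowest group. It rose by 1.96 ± 0.21 with zebularine in nse4a-2 (adjusted p = 0.000611) and by 1.80 ± 0.21 against WT in zebularine (adjusted p = 0.00044), both kept in every alternative. With zebularine in WT the difference of 0.85 ± 0.23 missed the threshold (adjusted p = 0.088) and passed without the filter (adjusted p = 0.0377). AT5G13360, in the same row of GH3 genes, was at 16.8 and 14.2 CPM in nse4a-2_zeb and 19.1 and 19.6 CPM in nse4a-2_ctrl, against 26.9 and 23 CPM in WT_zeb and 20.4 and 23.4 CPM in WT_ctrl. It fell by 0.69 ± 0.14 against WT in zebularine (adjusted p = 0.0093), a call lost without nse4a-2_zeb replicate 2 or WT_zeb replicate 1 (adjusted p = 0.0918 and 0.0617).

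GH3.9 was at 5.52 and 6.52 CPM in nse4a-2_zeb, against 11.6 and 9.90 CPM in WT_zeb, and fell by 0.84 ± 0.23 (adjusted p = 0.027). Its values without zebularine were lower in both genotypes, 3.69 and 3.46 CPM in nse4a-2_ctrl and 7.0 and 4.68 CPM in WT_ctrl, with no call for zebularine (differences of 0.75 ± 0.24 in nse4a-2 and 0.88 ± 0.23 in WT), except in WT without the filter (adjusted p = 0.0302). AT1G48660 was at 0.508 and 0.577 CPM in nse4a-2_zeb, against 2.25 and 1.86 CPM in WT_zeb, and fell by 1.91 ± 0.40 (adjusted p = 0.0083). Both calls were lost without either nse4a-2_zeb library (adjusted p = 0.138 and 0.0866 for GH3.9, 0.0586 and 0.063 for AT1G48660), and that of GH3.9 also without either WT_zeb library (adjusted p = 0.128 and 0.0511).

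Among the transport genes, PILS3 and LAX1 changed in at least 1 comparison out of 7 tested, which is 28.6%, near the 27.5% of all genes. PILS3 was at 28.1 and 28.1 CPM in nse4a-2_zeb, against 16.2 and 18.7 CPM in nse4a-2_ctrl, 14.1 and 14 CPM in WT_zeb, and 13.5 and 14.6 CPM in WT_ctrl. It rose by 1.00 ± 0.13 against WT in zebularine (adjusted p = 0.00082), kept in every alternative, and by 0.69 ± 0.13 with zebularine in nse4a-2 (adjusted p = 0.00805). The second was lost without nse4a-2_zeb replicate 2 or nse4a-2_ctrl replicate 1 (adjusted p = 0.0673 and 0.0517). LAX1, an influx carrier, was at 61 and 57.8 CPM in nse4a-2_zeb and 40.8 and 57.2 CPM in nse4a-2_ctrl, against 28.4 and 36.4 CPM in WT_zeb and 32.5 and 35.8 CPM in WT_ctrl. It rose by 0.87 ± 0.17 in nse4a-2 against WT in zebularine (adjusted p = 0.0068), lost without WT_zeb replicate 1 (adjusted p = 0.0515), and all 4 nse4a-2 libraries lie above the 4 WT libraries. AUX1, the most read influx carrier, was at 93.9 to 125.3 CPM and LAX2 at 39.9 to 63.3 CPM, with no call for either.

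The F-box receptors among the members, AFB2, AFB3 and AFB5, passed in no comparison. TIR1, AFB1 and AFB4 are not members by the rule and were read from the pathway list. TIR1 was at 67.1 and 69.25 CPM in nse4a-2_zeb, against 88.9 and 106.1 CPM in nse4a-2_ctrl. It fell by 0.52 ± 0.13 with zebularine in nse4a-2 (adjusted p = 0.0298 by edgeR). Against WT in zebularine its difference was -0.40 ± 0.13 (adjusted p = 0.0577). AFB1 and AFB4 had no call. Among the members AFB3 came nearest, at 38.7 and 37.1 CPM in nse4a-2_zeb, against 53.6 and 52.6 CPM in nse4a-2_ctrl, a difference of -0.49 ± 0.18 (adjusted p = 0.10).

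The dormancy/auxin associated gene AT2G33830 had the highest per-length level of all members, a mean of 257 FPKM over the 8 libraries, and one of the widest ranges. It was at 197.3 and 197.3 CPM in nse4a-2_zeb and 196.0 and 248.3 CPM in nse4a-2_ctrl, against 6.13 and 21.2 CPM in WT_zeb and 69.5 and 62.1 CPM in WT_ctrl. The nse4a-2 groups overlap, WT_ctrl lies below them, and WT_zeb lies lowest. It rose by 3.86 ± 0.43 in nse4a-2 against WT in zebularine (adjusted p = 0.000386), kept in every alternative, and by 1.75 ± 0.39 in control medium (adjusted p = 0.043). In WT it fell by 2.28 ± 0.41 with zebularine (adjusted p = 0.027), and in nse4a-2 the difference was -0.17 ± 0.37 (adjusted p = 0.81). The control-medium call was lost in 6 of 8 fits that leave out 1 library, all but those without a WT_zeb library (adjusted p up to 0.188), and the fall in WT without WT_ctrl replicate 1 (adjusted p = 0.135). AT1G56220, of the same family, fell by 0.56 ± 0.16 with zebularine in nse4a-2 (adjusted p = 0.040), at 73.0 and 84.5 CPM in nse4a-2_zeb, against 135.0 and 97.8 CPM in nse4a-2_ctrl. In WT it was at 65.9 and 63.5 CPM with zebularine, against 98.9 and 105.5 CPM without, a difference of -0.66 ± 0.16 that missed the threshold (adjusted p = 0.063) and passed by DESeq2 (adjusted p = 0.0069), without the filter and with the block. The call was lost in 6 of 8 such fits, all but those without WT_zeb replicate 1 or nse4a-2_ctrl replicate 2 (adjusted p up to 0.187).

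Genes of the circadian clock were also called in these comparisons, in more than 1 pattern, and the hour of harvest is not given. Of 8 clock genes, 5 rose and 0 fell with zebularine in nse4a-2, 3 rose and 2 fell with zebularine in WT, 5 rose and 2 fell in nse4a-2 against WT in zebularine, and 1 rose in control medium. In the same order, 14.7, 2.3, 22.0 and 3.13% of all genes were called. Their summed level was 791.3 and 861.4 CPM in nse4a-2_zeb, 470.3 and 469.5 CPM in nse4a-2_ctrl, 378.5 and 443.0 CPM in WT_zeb, and 346.3 and 360.5 CPM in WT_ctrl, and none was at 0. This sum joins genes that went opposite ways with zebularine in WT. The evening gene ELF4 was at 62.0 and 70.3 CPM in nse4a-2_zeb and 75.8 and 62.0 CPM in nse4a-2_ctrl, against 0.833 and 5.03 CPM in WT_zeb and 23.5 and 22.9 CPM in WT_ctrl, which is the order of groups seen for AT2G33830. TOC1, GI and LUX also had their lowest values in WT_zeb, while CCA1, LHY, RVE8 and PRR9 did not. CCA1, LHY and RVE8 rose with zebularine by 1.62, 2.41 and 1.83 in nse4a-2 and by 2.49, 2.76 and 2.11 in WT. LHY and RVE8 fell by 0.795 and 1.006 in nse4a-2 against WT in zebularine. The part of the clock in the values of AT2G33830, IAA29 and the other members was not tested.

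Markers of other tissues were read beside these calls. Of all genes, 14.7% were called with zebularine in nse4a-2 and 2.3% with zebularine in WT. In nse4a-2 against WT, 22.0% were called in zebularine and 3.13% in control medium. Of 4 tested root genes, COBL9, a root hair gene, rose in nse4a-2_zeb, to 2.41 and 3.52 CPM, against 0.254 and 0.124 CPM in nse4a-2_ctrl and 0.196 and 0.0547 CPM in WT_zeb, and SCR fell. The root hair regulator RHD6 had 0 CPM in all zebularine libraries and at most 0.371 CPM elsewhere, and the summed root level was 72.3 and 77.5 CPM in nse4a-2_zeb, 80.4 and 93.2 CPM in nse4a-2_ctrl, 85.5 and 93.1 CPM in WT_zeb, and 79.8 and 80.4 CPM in WT_ctrl. Of 6 leaf photosynthesis genes, 3 rose with zebularine in nse4a-2 and 1 in WT, while LHCB2.1, a light-harvesting gene that rose with zebularine in both genotypes, fell by 1.01 in nse4a-2 against WT in control medium (adjusted p = 0.0131 by edgeR). Of 6 stomatal lineage genes 2 fell with zebularine in nse4a-2, and in nse4a-2 against WT in zebularine 1 fell and FAMA, a guard cell factor, rose by 0.60 (adjusted p = 0.0112). Of 4 vascular genes CVP2 fell by 0.70 with zebularine in nse4a-2 and by 0.62 against WT in zebularine. The leaf sum ran from 16690 to 18910 CPM in nse4a-2_zeb, 11770 to 13700 CPM in nse4a-2_ctrl, 14100 to 17710 CPM in WT_zeb and 12810 to 15460 CPM in WT_ctrl. The stomatal sum was 73.5 and 59.6 CPM in nse4a-2_zeb, 102.9 and 110.4 CPM in nse4a-2_ctrl, 73.6 and 87.4 CPM in WT_zeb, and 116.9 and 92.8 CPM in WT_ctrl. The vascular sum was 50.5 and 52 CPM in nse4a-2_zeb, 57.7 and 62 CPM in nse4a-2_ctrl, 59 and 66.2 CPM in WT_zeb, and 63.2 and 66.9 CPM in WT_ctrl. Their part in the auxin gene results was not tested.

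Among the remaining members, AIR12, a cytochrome of the plasma membrane named for its induction by auxin in roots, was at 99.6 and 96.4 CPM in nse4a-2_zeb, against 55.5 and 67.4 CPM in nse4a-2_ctrl, 62.7 and 74.6 CPM in WT_zeb, and 54.9 and 62.7 CPM in WT_ctrl. It rose by 0.67 ± 0.14 with zebularine in nse4a-2 (adjusted p = 0.012) and by 0.51 ± 0.14 against WT in zebularine (adjusted p = 0.026). Both calls were lost without either nse4a-2_zeb library, the first also without nse4a-2_ctrl replicate 1 and the second without WT_zeb replicate 1 (adjusted p up to 0.0703 and 0.147). AT3G25290 was at 3.43 and 3.11 CPM in nse4a-2_zeb, against 5.59 and 5.69 CPM in WT_zeb, and fell by 0.79 ± 0.22, a call lost under DESeq2 (adjusted p = 0.0966) and in 6 of 8 fits that leave out 1 library, all but those without an nse4a-2_ctrl library (up to 0.168). AT5G35735, annotated as auxin-responsive, had a wide spread, 106.2 and 173.7 CPM in nse4a-2_zeb, 47.2 and 73.4 CPM in nse4a-2_ctrl, 45.0 and 93.4 CPM in WT_zeb, and 21.3 and 38.7 CPM in WT_ctrl. By edgeR its adjusted p was 0.0666 to 0.217 in the 4 comparisons, and by DESeq2 0.151 to 0.437. With the replicate block it passed in all 4 (adjusted p = 0.00031 to 0.00236), without the filter in 3 of them, and the authors' deposited table called it in each of the 3 comparisons it holds. AXR1, which activates the receptor complex, and ABP1 passed in none.

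Whether zebularine acted differently in the 2 genotypes was tested as the difference of both responses. No member passed, against 0.772% of all genes (0.549% higher and 0.224% lower). At an unadjusted p below 0.05 there were 18 members, 15.5% of those tested, against 14.3% of all genes, and DESeq2 called 3. ARF18 had a difference of -0.98 ± 0.19 (adjusted p = 0.054), ARF10 one of -0.86 ± 0.18 (adjusted p = 0.062) and SAUR78 one of -0.80 ± 0.18 (adjusted p = 0.074). IAA29 had one of 2.53 ± 0.60 (adjusted p = 0.089), SAUR8 one of -1.58 ± 0.39 (adjusted p = 0.097) and AT2G33830 one of 2.1 ± 0.55 (adjusted p = 0.11). These calls turn on the setting. ARF18, ARF10 and IAA29 passed by DESeq2 (adjusted p = 0.0186, 0.0487 and 0.0325) and with the replicate block (adjusted p = 0.0334, 0.0371 and 0.0371). AT2G33830 passed with the block (adjusted p = 0.0467) and not by DESeq2 (adjusted p = 0.198), and SAUR78 in neither (adjusted p = 0.0538 with the block and 0.0779 by DESeq2). Without the filter all of these but SAUR8 passed (adjusted p = 0.0113 to 0.0365).

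Both zebularine responses share no library and can be set side by side. Across the 116 tested members, 63.8% had the same sign in both genotypes, against 62.7% of all genes tested. Pearson's r across the members was 0.225 and Spearman's rho 0.375, against 0.437 and 0.387 across all 19682 genes; genes are not independent replicates, and all values share the depth of the same libraries. Across the 53 SAUR genes rho was 0.306, and across the 19 Aux/IAA genes 0.44.

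**Figure D4:**
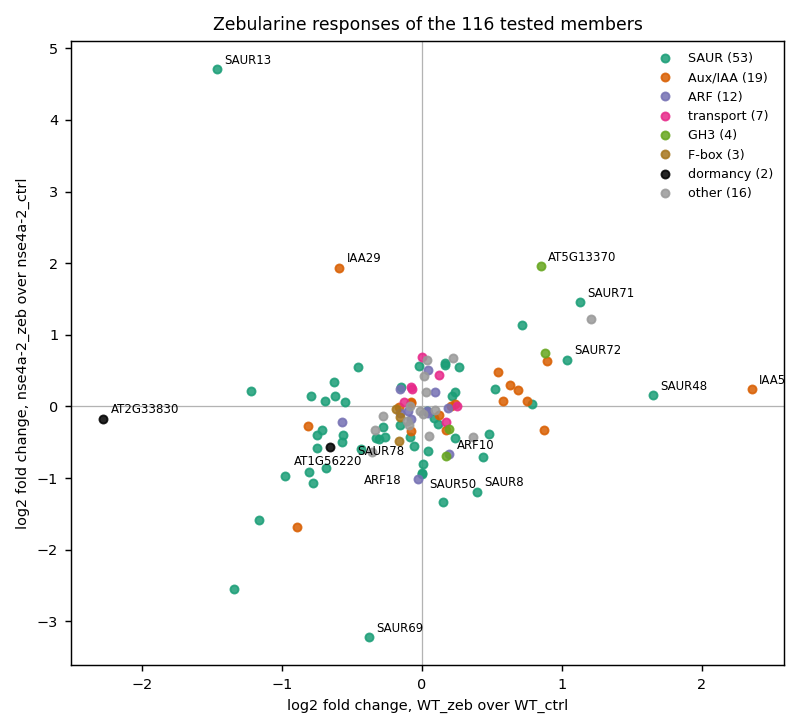
Log2 fold change with zebularine in WT (horizontal axis) against that in nse4a-2 (vertical axis) for the 116 tested members, coloured by class. SAUR71, SAUR72 and AT5G13370 are up in both, IAA5, SAUR48 and AT2G33830 lie out along the WT axis and IAA29, ARF18 and SAUR78 along the nse4a-2 axis; SAUR13 and SAUR69 rest on few counts.

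Other genes of the auxin pathway, outside the annotation rule, were read from a list of 68, of which 52 were tested. With zebularine in nse4a-2, 4 rose and 5 fell; with zebularine in WT, 2 rose; in nse4a-2 against WT, 7 rose and 7 fell in zebularine and 1 rose in control medium. In the same order these are 17.3, 3.85, 26.9 and 1.92% of those tested, against 14.7, 2.3, 22.0 and 3.13% of all genes. The efflux carrier gene PIN4 was at 40.1 and 32.9 CPM in nse4a-2_zeb, against 51.8 and 63.8 CPM in nse4a-2_ctrl, and fell by 0.67 ± 0.14 with zebularine in nse4a-2 (adjusted p = 0.015), a call lost without replicate 2 of nse4a-2_zeb or of nse4a-2_ctrl (adjusted p = 0.152 and 0.069). Of 4 tested transporter genes of the ABCB family, ABCB1 and ABCB4 rose with zebularine in nse4a-2, and these and ABCB21 rose against WT in zebularine, while ABCB19 differed by 0.02 ± 0.18 and -0.11 ± 0.18. ABCB4 was at 44.3 and 42.0 CPM in nse4a-2_zeb, against 16.6 and 21.3 CPM in nse4a-2_ctrl and 15.5 and 15.2 CPM in WT_zeb, and rose by 1.18 ± 0.16 (adjusted p = 0.0017) with zebularine and by 1.49 ± 0.16 against WT in zebularine (adjusted p = 0.0003). UGT74E2, which joins glucose to the auxin precursor indole-3-butyric acid, was at 7.05 and 7.26 CPM in nse4a-2_zeb, against 1.46 and 1.18 CPM in nse4a-2_ctrl, and at 1.52 and 1.59 CPM in WT_zeb, against 0.11 and 0.512 CPM in WT_ctrl. It rose by 2.43 ± 0.38 with zebularine in nse4a-2 (adjusted p = 0.00356) and by 2.35 ± 0.51 in WT (adjusted p = 0.0495). The call in WT was lost in 7 of 8 fits that leave out 1 library, all but the one without WT_ctrl replicate 2 (adjusted p up to 0.319). YUC6, an enzyme of auxin synthesis, fell by 1.22 ± 0.24 with zebularine in nse4a-2 (adjusted p = 0.011), at 2.73 and 2.83 CPM in nse4a-2_zeb, against 6.42 and 6.56 CPM in nse4a-2_ctrl, a call lost without either nse4a-2_zeb library (adjusted p = 0.0525 and 0.0805). Of 6 tested target genes of the pathway, 1 rose and 2 fell in nse4a-2 against WT in zebularine. Those that fell were the expansin genes EXPA1 and EXPA8, by 1.26 ± 0.17 and 1.29 ± 0.23. PID, a kinase that steers PIN proteins, rose in control medium by 1.06 ± 0.21 (adjusted p = 0.027), at 46.8 and 62.7 CPM in nse4a-2_ctrl, against 26 and 26.5 CPM in WT_ctrl, a call lost without nse4a-2_ctrl replicate 2 or either WT_ctrl library (adjusted p = 0.0813 to 0.152).

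The authors' deposited table holds calls for 3 of these comparisons. With zebularine in nse4a-2 the authors' deposited table called 17 members, 13 of them among the 14 called here. The authors' deposited table called 13 members with zebularine in WT, with 4 of the 5 called here, and 11 for nse4a-2 in control medium, with 3 of the 4 called here.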

How the data were processed

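The deposited table holds, per the file headers, raw read counts per gene for biological replicates R1 and R2 of the 4 groups, with alignment to TAIR10. TopHat2 and Cuffdiff appear in the submitters' processing notes, with no versions or roles, and the counting tool is not given in the sources used here. FPKM per replicate, log2 fold changes, adjusted p-values and calls are also the authors' own, as deposited, with calls at an adjusted p-value below 0.05 per the file headers. The FPKM values served for levels per length and the authors' calls for 1 comparison of counts of calls. A further 8 per-sample columns (means and SDs) were not used here.

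The members and lists were chosen with earlier results of these data known. All 166 members were matched by locus to RefSeq names (TAIR10.1); the files name TAIR10, so no coordinates or sequences are printed, and promoters and proteins were not analysed here. Of the classes, 8 genes (5 Aux/IAA and 3 transport) were placed by name once their annotations were read. Genes were named by a rule: called members (up to 12 each way), the 2 tested members of largest change and the 3 of highest mean CPM per class, and up to 5 called genes of the pathway list. Some genes that met the rule are not printed. SAUR1, SAUR3, SAUR20, SAUR24, SAUR37, ARF8, ARF16, ARF17, IAA1, IAA19, AXR1, ABP1, TIR1, AFB1, AFB4, ABCB1, ABCB19, ABCB21, EXPA1 and AT5G35735 were chosen after their values were seen. So were the KNAT6, ELF4, TOC1, GI, LUX, PRR9, CCA1, LHY, RVE8, COBL9, LHCB2.1, FAMA and CVP2 markers. One result of the pathway list is not reported here.

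Counts were filtered (filterByExpr), scaled by TMM (factors 0.957 to 1.03) and modelled in edgeR 4.0.16 (R 4.3.3, limma 3.58.1) with the 4 groups together, giving 5 contrasts with Benjamini-Hochberg adjustment over 19682 genes, 2-sided. The SE is the log2 fold change divided by the square root of F. The common biological coefficient of variation was 13.4%. Differences between replicates 2 and 1 were weakly correlated between groups over all genes (r of -0.086 to 0.234 over 6 pairs of groups). These r values cannot show whether single genes share a replicate effect. Whether replicates came from separate plants is as the headers say, and p-values measure the spread between these libraries. Alternatives were RLE scaling, DESeq2 1.42.0, no filter, a replicate block, and leaving out each library; where that leaves 1 library in a group, it is assumed to vary like the others. The procedure was tested on simulated data. Floors and counts of 0 cover counting error only (3 counts at 95% confidence), since reads are not independent molecules. Tables used pandas 2.3.3 and numpy 2.4.6 under Python 3.11.15, and figures matplotlib 3.10.9.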

Additional observations from a re-analysis of the deposited data

How the results depend on the processing

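Under RLE scaling no count of members called changed. With zebularine in WT, 8 members rose and 2 fell by DESeq2, 12 and 2 with no low-count filter, and 6 and 2 with the replicate block, against 4 and 1. For nse4a-2 in control medium 7 rose and 1 fell by DESeq2, 9 and 3 with no filter, and 8 and 2 with the block, against 4 and 0. For the difference of responses 1 was higher and 2 were lower by DESeq2, 2 and 3 with no filter, and 2 and 2 with the block, against 0 and 0. Under these settings the counts of both comparisons that hold nse4a-2_zeb stayed within 1.5 times. The cause of these shifts was not tested. Pairing by number is not stated in the headers.

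Leaving out each library in turn gave, for zebularine in nse4a-2, 2 to 9 members higher and 2 to 7 lower; for zebularine in WT, 0 to 4 and 0 to 2; for nse4a-2 in zebularine, 8 to 12 and 3 to 13; for nse4a-2 in control medium, 0 to 4 and 0 to 2; and for the difference, 0 to 1 and 0 to 0. Of the calls, 4 of 14, 0 of 5, 10 of 22 and 0 of 4 were kept in every alternative, in the same order of comparisons. None of the 58 called values of named genes changed sign in any alternative; of 57 values without a call, 8 changed sign or came to 0 in at least 1 fit that leaves out a library (3 of AFB3, 2 of AT1G56220, and 1 each of AFB2, AT2G33830 and SAUR13). With 2 libraries per group and a median of 287 counts per tested SAUR gene, depth limits what single SAUR genes can show.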
